A study of Mus musculus with 26 samples.

Results

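The 41 genes described here encode proteins that copy DNA during S phase, from the loading of the replicative helicase at origins to the supply of nucleotides and the packing of the new DNA. They were taken by symbol from a list and matched by Ensembl identifier, and all 41 were found among the 47643 genes counted. The study sequenced poly(A) RNA from mouse livers as 26 libraries in 10 groups, in 5 experiments that each have a control of their own. Gene reads ranged from 13949059 to 70367874 per library, and levels are given as CPM (reads scaled to the gene reads of the library, with TMM factors set within each experiment), so levels are compared within an experiment only. A gene was called raised or lowered where edgeR's quasi-likelihood test gave a Benjamini-Hochberg adjusted p under 0.05 over all genes tested in that experiment.

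The groups were as follows. Wild-type C57BL/6J mice of 8 weeks, fed ad libitum, were given corn oil (n = 2) or TCPOBOP (n = 2), an agonist of the nuclear receptor CAR; the titles place the TCPOBOP livers at 36 hours after injection, whereas the source names say 6 hours. Wild-type C57BL/6J mice (n = 3) were compared with Fxr-/- Shp-/- mice (n = 3), which lack the bile acid receptor FXR and the corepressor SHP in the whole animal, at 12 weeks and fed ad libitum. C3H/HeN mice of 8 to 10 weeks, fed ad libitum and with no genotype in the labels, underwent a sham operation sampled at 0 hours (n = 3) or partial hepatectomy (PHx) sampled at 48 hours (n = 3), so that operation and time cannot be told apart. Hepatocytes of wild-type C57BL/6J mice of 16 weeks, fasted for 10 hours, came from mice on chow (n = 2) or on a diet labelled 60% high fat (HFD, n = 2). C57BL/6J mice carrying fl/fl Fxr fl/fl Shp alleles in both groups, aged 10 to 12 weeks and fasted for 8 to 10 hours, were fed chow (n = 3) or cholic acid (n = 3), a bile acid; the labels name no Cre. All samples other than the hepatocytes were whole liver. The labels do not say that the libraries of a group came from separate animals, so p-values measure only the spread between these libraries.

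In G1 phase the origin recognition complex (Orc1 to Orc6) recruits CDC6 and CDT1, which load the ring-shaped MCM2-7 helicase onto DNA, a step called licensing. At the start of S phase CDC45 and the GINS complex join MCM2-7, and MCM10 helps to start unwinding of the DNA. Primase, the polymerases and the sliding clamp PCNA then copy both strands. Hepatocytes of the adult liver are mostly quiescent and enter the cell cycle nearly synchronously after partial hepatectomy; transcription factors of the E2F family are known to drive many of these genes at the G1 to S transition.

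The promoters of these genes are shown first because nearly all members rose together in 1 experiment, after partial hepatectomy. RefSeq gene starts on GRCm38.p6 gave promoters for 34 of the 41 members, and Mcm4, Gins1, Gins2, Gins4, Rfc2, Prim2 and Pole were not in the table used. The letters TTTCCCGC, TTTCGCGC, TTTGCCGC or TTTGGCGC on either strand, taken as the E2F motif, occurred in the 250 bases before the start of 9 of 34 members (26.47%). The same letters occurred in 517 of 27025 promoters of all genes in the table (1.91%). The 9 members were Mcm5, Mcm6, Mcm7, Orc1, Cdc6, Gins3, Rfc3, Pola1 and Dtl, and 5 of the 9 licensing genes with a promoter were among them. The CCAAT letters on either strand occurred in 23 of 34 members (67.65%) and in 34.46% of all promoters. Of 25 promoters of a list of 30 mitosis genes, 1 held the E2F letters (4.0%) and 18 held CCAAT (72.0%). Of 44 promoters of a list of 54 further replication genes, 5 held the E2F letters (11.36%) and 16 held CCAAT (36.36%). The sequences below are the 160 bases directly before the start of 3 members with the E2F letters and of Mcm10, which has none; they run 5′ to 3′ in the direction of the gene, with each E2F match in capitals. They lie at chr8:75109349-75109508 (Mcm5, plus strand), chr1:128359706-128359865 (Mcm6, minus strand), chrX:93632156-93632315 (Pola1, minus strand) and chr2:5012792-5012951 (Mcm10, minus strand), and none of their bases is in an annotated exon of GENCODE M21.
Mcm5: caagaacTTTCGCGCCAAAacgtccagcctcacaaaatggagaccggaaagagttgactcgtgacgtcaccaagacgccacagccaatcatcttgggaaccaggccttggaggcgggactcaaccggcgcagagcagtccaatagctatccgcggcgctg
Mcm6: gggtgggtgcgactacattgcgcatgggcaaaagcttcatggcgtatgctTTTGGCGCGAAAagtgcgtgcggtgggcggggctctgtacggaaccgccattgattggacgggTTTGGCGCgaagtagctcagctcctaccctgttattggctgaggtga
Pola1: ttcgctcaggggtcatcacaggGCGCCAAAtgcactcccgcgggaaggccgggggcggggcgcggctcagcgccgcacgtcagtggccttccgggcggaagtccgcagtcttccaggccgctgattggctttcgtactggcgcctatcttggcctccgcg
Mcm10: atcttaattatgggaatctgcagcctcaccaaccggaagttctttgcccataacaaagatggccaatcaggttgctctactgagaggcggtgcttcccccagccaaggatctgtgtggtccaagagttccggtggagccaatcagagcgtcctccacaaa
The match of Mcm5 is made of 2 overlapping copies on opposite strands, beginning 153 and 149 bases before the start. Mcm6 holds a like pair at 110 and 106 bases before the start and a further copy at 47 bases, and Pola1 holds 1 copy at 138 bases. These matches are letters in a window and no measurement of binding, and the absence of a match says only that these letters are not in this window.

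Before the results, 1 library has to be named. Cyp2b10, the classical target gene of CAR, stood at 3786 CPM in corn oil 1, 10.3 CPM in corn oil 2 and 3465 and 3079 CPM in TCPOBOP 1 and 2, so corn oil 1 goes against its label and is called the library labelled corn oil 1. In the Fxr-/- Shp-/- experiment, Nr0b2 (SHP) was at 15.04, 28.2 and 13.7 CPM in wild type and at 0.594, 1.16 and 1.68 CPM in the knockout, and Nr1h4 (FXR) at 153, 161 and 117 CPM against 65.0, 55.7 and 58.5 CPM; which exons were deleted is not given in the sources used here. Exons of 14 of the 41 members overlap a gene on the opposite strand, among them Chaf1a with Ubxn6 over 52.5% of its exon bases and Gins2 with Gse1 over 67.3%. The strand setting of the counting is not given, so how reads in the shared bases were counted, or whether they were left out, is not known.

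**Figure D1:**
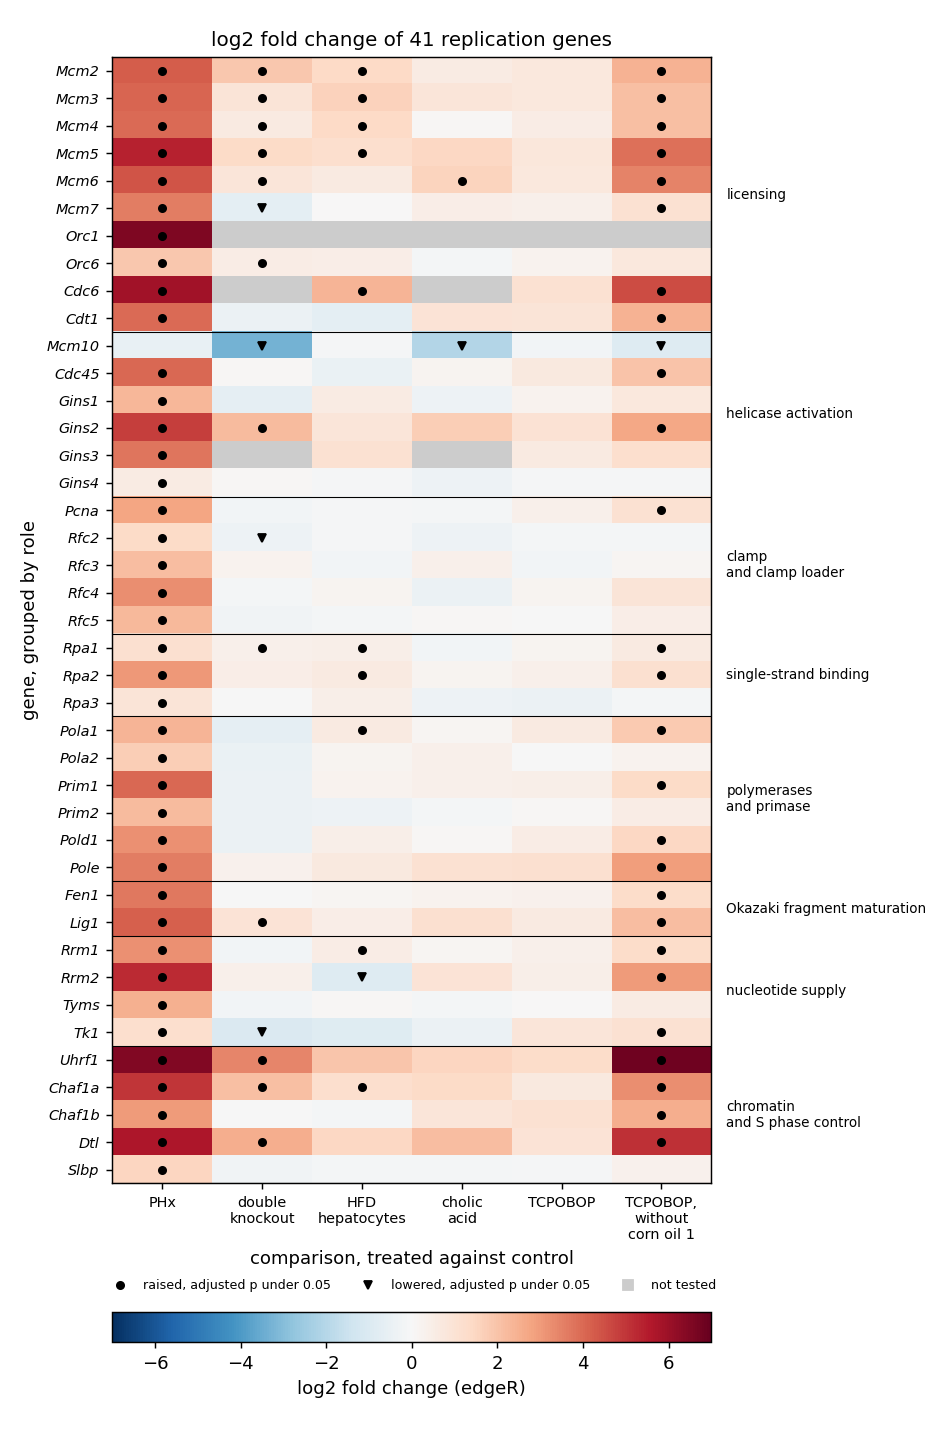
log2 fold change of each of the 41 genes (rows, grouped by role) in the 5 comparisons and in TCPOBOP without the library labelled corn oil 1 (columns). Circles mark raised and triangles lowered genes, and grey cells were not tested; 40 of 41 genes are raised after PHx, and Mcm10 is the gene with triangles in 3 columns.

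Partial hepatectomy raised 40 of 41 members and lowered none, where 16.4% of all genes tested were raised and 14.3% lowered. The median log2 fold change of the members was 3.25, against 0.01 over all 13753 genes tested, and every library of PHx lay above every sham library in those 40 genes, as it did in 24.4% of all genes tested. Mcm10 was the exception. Orc1 and Cdc6, counted among the 40, were tested only because of their PHx reads, so their calls add no support. In bulk liver, more cells with a message and more of it per cell cannot be told apart. Hepatocyte markers summed to 128537 to 132989 CPM in sham and 98846 to 112176 CPM in PHx, and 1 of 7 hepatocyte markers was raised and 2 were lowered. None of 7 tested leukocyte markers was called; 1 of 5 stellate (Col1a1, 0.95) and 1 of 5 bile duct markers (Krt19, 0.88) were raised, and 1 of 5 endothelial (Lyve1, -1.09) and 1 of 4 tested erythroid markers (Klf1, -1.69) were lowered. Their part in the result was not tested.

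All 10 licensing genes rose, with a median log2 fold change of 4.15. Orc1, an ATPase subunit of the origin recognition complex, had 1, 3 and 0 reads in the sham libraries and 158, 202 and 83 reads after PHx (log2 fold change 6.52 ± 0.65 SE, edgeR adjusted p = 0.000252). Orc1 was thus nearly absent from the reads of sham liver and present in all PHx libraries. It was tested only because of its PHx reads and could only be called raised, so its call adds no support. Orc6 changed least in this role, from 2.45, 3.59 and 2.30 CPM to 9.41, 13.6 and 8.29 CPM (log2 fold change 1.90 ± 0.25). Cdc6, which loads MCM2-7 together with CDT1, went from 0.621, 0.209 and 0.206 CPM to 21.0, 31.3 and 8.82 CPM (5.87 ± 0.60, adjusted p = 0.000305). Its partner Cdt1 went from 2.38 ± 0.64 (SD, n = 3) to 37.4 ± 21.6 CPM. The helicase subunit Mcm5 was at 3.43, 2.15 and 1.27 CPM in sham and 97.1, 127 and 63.6 CPM in PHx (5.39 ± 0.38, adjusted p = 4.02e-05). Mcm6 was at 8.69, 6.78 and 5.55 CPM in sham and 149, 195 and 102 CPM in PHx (4.41 ± 0.28, adjusted p = 2.16e-05). The groups of both genes were far apart. Mcm2, Mcm3, Mcm4 and Mcm7 rose by 4.22, 4.09, 3.97 and 3.56 on the log2 scale.

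MCM2-7 is a ring with 1 copy of each subunit, so its genes were also compared per length, as CPM per kb of union exon. That length joins the exons of all annotated isoforms, from 3589 bases for Mcm4 to 6956 bases for Mcm2. Which isoforms were made was not measured, so ratios between subunits depend on these lengths. In sham liver Mcm6 (1.502 ± 0.34, SD, n = 3) and Mcm7 (1.46 ± 0.14) were highest; Mcm4 (0.945 ± 0.091) and Mcm3 (0.940 ± 0.133) followed, then Mcm5 (0.572 ± 0.272) and Mcm2 (0.397 ± 0.097). In PHx the order was Mcm6 (31.9 ± 10.1), Mcm5 (24.0 ± 7.9), Mcm7 (17.3 ± 4.4), Mcm3 (16.1 ± 7.1), Mcm4 (14.8 ± 6.7) and Mcm2 (7.40 ± 3.50). The spread in PHx is shared between the genes, since they were measured in the same libraries, so neighbours were also compared within each library. Mcm6 stood 1.31 to 1.37 times above Mcm5, Mcm5 1.20 to 1.48 times above Mcm7 and Mcm4 1.94 to 2.10 times above Mcm2 in 3 of 3 PHx libraries, and the ratio of Mcm7 to Mcm3 ran from 0.954 to 1.496, so that their order was not the same in each library. In sham the ratio of Mcm6 to Mcm7 ran from 0.873 to 1.15 and that of Mcm5, the fifth subunit there, to Mcm2 from 1.04 to 1.73.

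**Figure D2:**
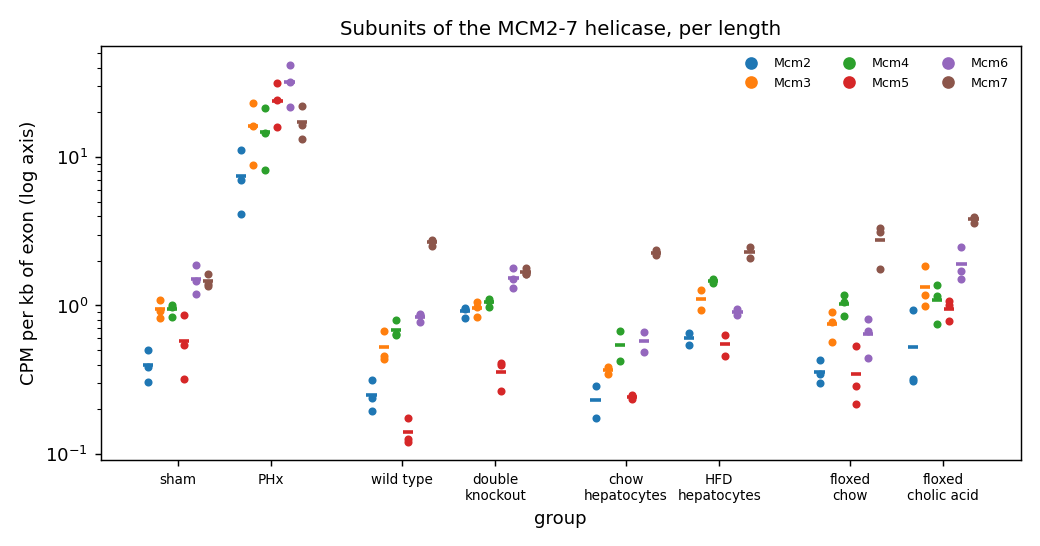
Level of the 6 MCM2-7 subunit genes as CPM per kb of exon (log axis) in 4 experiments; dots are libraries and bars group means, and levels are comparable only within an experiment. All 6 genes are higher in every PHx library than in every sham library; Mcm7 is the highest subunit in wild-type liver, in both hepatocyte groups and in both floxed groups.

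Of the genes of helicase activation, 5 of 6 rose. Gins2, a subunit of the GINS complex, changed most, from 0.425, 0.807 and 0.411 CPM to 15.4, 19.6 and 13.8 CPM (log2 fold change 4.86 ± 0.27, edgeR adjusted p = 1.23e-05). Its partners Gins3, Gins1 and Gins4 rose by 3.75, 2.34 and 0.59; GINS too holds 1 copy of each subunit. Gins4 was already at 14.8, 15.5 and 16.2 CPM in sham and reached 24.6, 24.2 and 21.2 CPM. Cdc45 rose by 4.03 ± 0.36.

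The genes of the copying machinery rose too, with lower medians than the licensing genes, a difference that was not tested. The 6 polymerase and primase genes all rose, with a median of 2.80; Prim1, the catalytic subunit of primase, changed most (2.13 ± 0.34 to 34.2 ± 4.4 CPM) and Pola2, a noncatalytic subunit of polymerase alpha, least (4.79 ± 0.74 to 16.0 ± 4.3 CPM, 1.74). The clamp Pcna went from 15.4, 13.6 and 13.7 CPM to 97.0, 120.1 and 74.5 CPM (2.77 ± 0.17, adjusted p = 2.22e-05). The clamp and loader genes had a median of 2.27. Among the subunits of the loader, Rfc4 rose most (3.25) and Rfc2 least (1.37). Of the single-strand binding genes Rpa2 rose by 3.05, whereas its partners in the same trimer, Rpa1 and Rpa3, rose by 1.11 and 0.92. Lig1, the ligase that joins Okazaki fragments, rose by 4.18 ± 0.21, and the flap nuclease Fen1 by 3.67 ± 0.23.

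In nucleotide supply, Rrm2, the small subunit of ribonucleotide reductase, went from 3.07, 5.02 and 4.32 CPM to 119, 179 and 170.1 CPM (log2 fold change 5.24 ± 0.23, adjusted p = 6.46e-06). Tk1, thymidine kinase, changed least, from 29.9, 26.03 and 29.3 CPM to 54.4, 58.5 and 79.6 CPM (1.18 ± 0.15), and was 1 of 2 members highest in PHx 3; the other was Tyms. Rrm1 and Tyms rose by 3.18 and 2.48. Uhrf1, which reads hemimethylated DNA behind the fork and brings in the maintenance methyltransferase, was at 1.31, 0.807 and 0.377 CPM in sham and 70.4, 129 and 28.6 CPM in PHx (6.50 ± 0.66, adjusted p = 0.000294). Dtl, an adaptor of the ubiquitin ligase that destroys CDT1 in S phase, rose by 5.67 and the histone chaperone subunits Chaf1a and Chaf1b by 4.98 and 2.98. Slbp, which binds the stem-loop of histone messages, changed least of the chromatin genes (1.49 ± 0.17).

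The 3 PHx libraries differed among themselves. PHx 2 held the highest value of 37 of 41 members and PHx 3 the lowest of 34, and the median member stood 3.29, 3.51 and 2.78 log2 units above the sham mean in PHx 1, 2 and 3. A list of 30 mitosis genes (Ccnb1, Cdc20, Plk1 and others), all tested, had 30 raised and a median of 5.38, with Ttk, a spindle checkpoint kinase, at 8.28. Some of them, such as Ttk (0.0507 CPM on average in sham), were tested only because of their PHx libraries, so their calls add no support. Of 54 further replication genes 42 were raised and none lowered, with a median of 1.25.

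**Figure D3:**
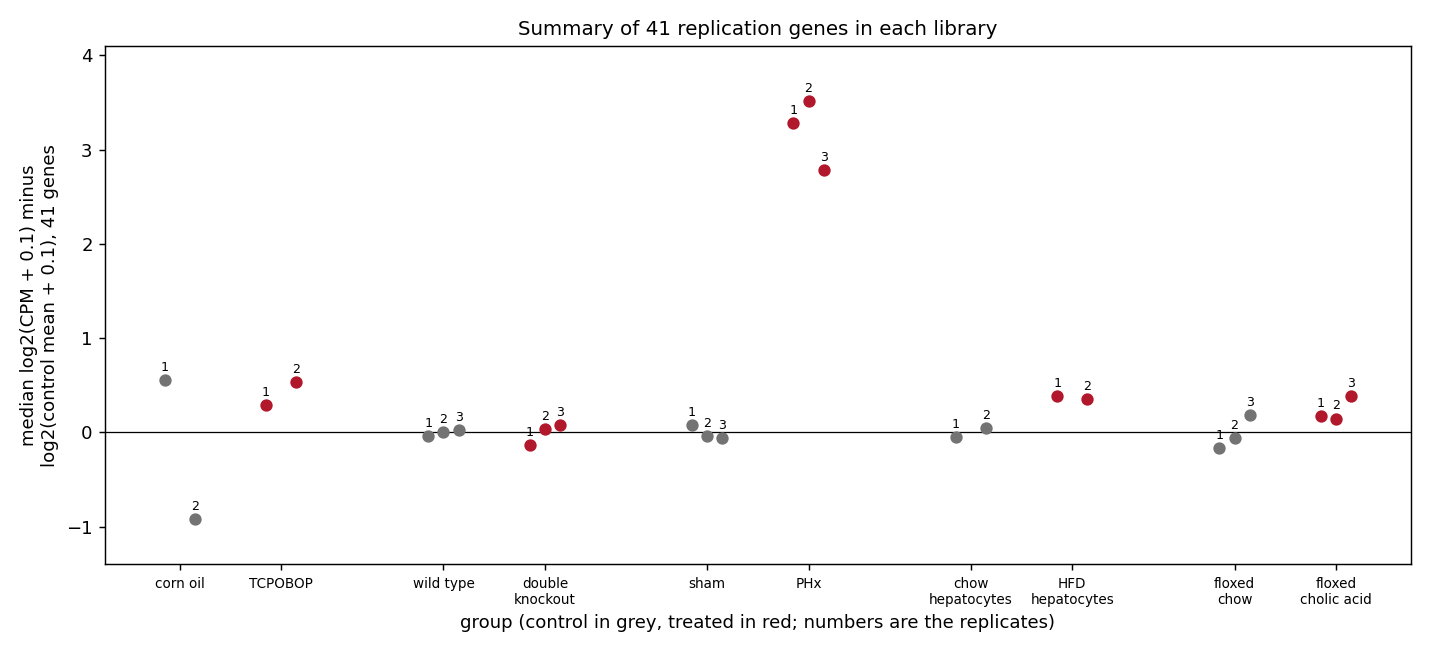
Median over the 41 genes of the log2 ratio of a library's CPM to the control mean (y axis, pseudocount 0.1 CPM), with 1 dot per library and its replicate number. The 3 PHx libraries lie between 2.78 and 3.51; the library labelled corn oil 1 lies at 0.56, beside the TCPOBOP libraries at 0.29 and 0.53, and corn oil 2 at -0.92.

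In the Fxr-/- Shp-/- livers the members split: 12 of 38 tested were raised (31.6%) and 4 lowered, where 21.0% of all genes tested were raised and 19.4% lowered. The median log2 fold change was -0.02, against -0.01 over all genes. The raised members were Mcm2, Mcm3, Mcm4, Mcm5, Mcm6, Orc6, Gins2, Rpa1, Lig1, Uhrf1, Chaf1a and Dtl, and the lowered ones Mcm7, Mcm10, Rfc2 and Tk1. Orc1, Cdc6 and Gins3 had too few reads to be tested. Uhrf1, Dtl and Gins2 were tested only because of their knockout reads and could only be called raised, so their calls add no support. With 26 libraries in 1 fit 3 of the 12 were raised, Mcm2, Gins2 and Chaf1a. The libraries also differed by genotype in the reads that named no gene: reads aligned to more than 1 place made up 43.2 to 44.1% of all reads in wild type and 25.5 to 26.9% in the knockout, and reads that could not be given to a single gene 1.0 to 1.1% and 1.8 to 2.0%. Their part in these calls was not tested.

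Mcm2 changed most of the licensing genes, from 1.34, 1.65 and 2.18 CPM in wild type to 6.72, 6.60 and 5.69 CPM in the knockout (log2 change of 1.88 ± 0.22, SE, with an edgeR adjusted p = 0.000273). Mcm5, Mcm3, Mcm6 and Mcm4 rose by 1.32, 0.88, 0.87 and 0.61. The sixth subunit, Mcm7, went the other way, from 12.1, 12.0 and 11.2 CPM to 7.23, 7.25 and 7.89 CPM (-0.66 ± 0.12, adjusted p = 0.00284). Per length, Mcm7 stood at 2.66 ± 0.12 CPM per kb in wild type against 0.141 ± 0.030 for Mcm5, the lowest subunit, and at 1.68 ± 0.09 against 0.356 ± 0.081 in the knockout. Mcm7 and Mcm5 were thus nearer to each other in the knockout. Exons of Mcm7 overlap Cops6 and Ap4m1 on the opposite strand over 1.4% and 7.3% of its exon bases. Without wild type 1 or without knockout 1, Mcm3, Mcm4, Orc6 and Rpa1 were no longer called, and without wild type 3 Mcm3, Mcm4 and Orc6 were not; Orc6 was lost without wild type 2 or knockout 3 and Mcm4 without knockout 2.

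Gins2 rose from 0.215, 0.253 and 0.483 CPM to 1.37, 1.30 and 1.85 CPM (2.24 ± 0.38, adjusted p = 0.002), whereas Gins4 was at 12.4 ± 0.4 and 13.4 ± 3.9 CPM (SD, n = 3). Uhrf1 had 1, 0 and 2 reads in the wild-type libraries and 13, 16 and 17 in the knockout, a ratio of 11.7 after scaling to library size, with an exact interval of 3.77 to 59.0 for counting error only (95% confidence). Dtl rose by 2.52 ± 0.44, from 3, 4 and 1 reads to 20, 22 and 20, and Chaf1a from 0.858 ± 0.246 to 3.69 ± 0.88 CPM (2.11). Chaf1b, the partner of Chaf1a in the chaperone CAF-1, was at 3.41 ± 0.36 and 3.32 ± 1.69 CPM. Lig1 rose by 0.93 and Rpa1 by 0.36, and Rpa2 (0.45) and Rpa3 (-0.04) were not called.

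None of the 6 polymerase and primase genes was called, with log2 fold changes from -0.62 (Pola1) to 0.32 (Pole). Of the clamp and its loader, Rfc2 fell by 0.34 on the log2 scale (adjusted p = 0.0446; not called without any 1 of wild type 1 to 3 or knockout 1 and 2), and Rfc4 (-0.14) and Pcna (14.3 ± 1.2 to 12.7 ± 0.3 CPM) were not called. Tk1 was at 15.7, 14.2 and 13.5 CPM in wild type and 5.81, 6.46 and 9.27 CPM in the knockout, with no overlap (-1.01 ± 0.18, adjusted p = 0.00273). Cdt1 (-0.40) and Tyms (-0.19) were not called. Of the mitosis genes 16 of 21 tested were raised and none lowered, with a median of 1.68. Several were tested only because of their knockout libraries, among them Prc1, Cdc20 and Cenpe at 0.141, 0.220 and 0.134 CPM in wild type. Such genes could only be called raised, so their calls add no support. Of the further replication genes 5 of 46 were raised (10.9%) and 7 lowered (15.2%), where 21.0% and 19.4% of all genes tested were. Markers of other cells moved with the genotype: 4 of 5 bile duct, 3 of 5 stellate, 2 of 5 endothelial and 2 of 7 tested leukocyte markers were raised, and 3 of 7 hepatocyte and 2 of 4 tested erythroid markers were lowered. The summed bile duct markers were at 27.3 to 38.0 CPM in wild type and 57.4 to 134.8 CPM in the knockout, and those of leukocytes at 126 to 259 and 184 to 368 CPM; their part in the result was not tested.

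**Figure D4:**
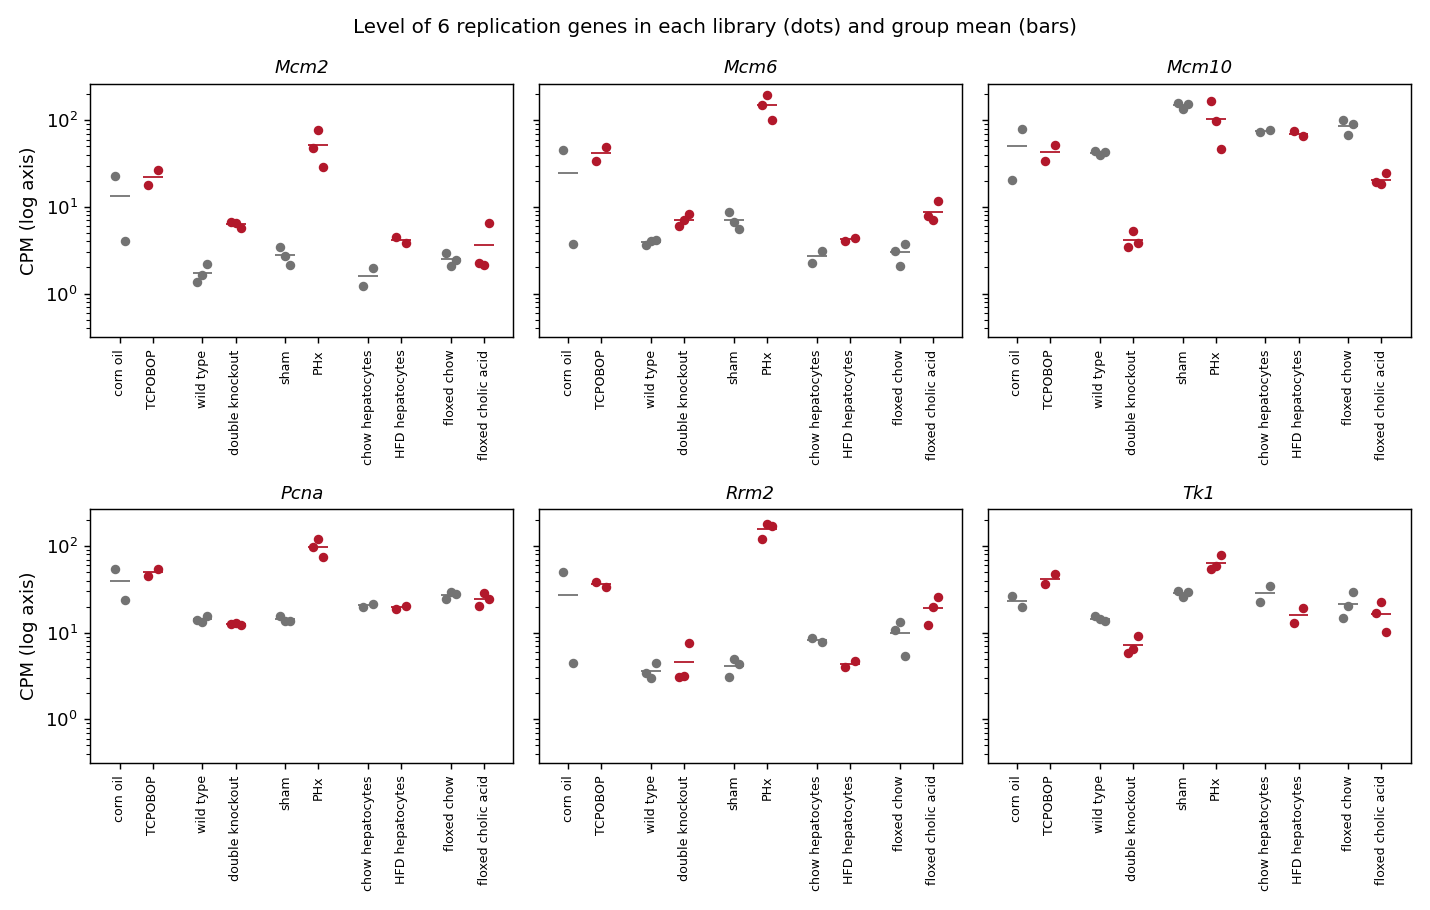
CPM (log axis) of 6 of the genes in every library (dots) with the group mean (bars), controls in grey and treated groups in red; levels are comparable only within an experiment. Mcm2, Mcm6, Pcna and Rrm2 are highest in the PHx libraries of their experiment, and Mcm10 is lower in each Fxr-/- Shp-/- and cholic acid library than in each of its controls.

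In hepatocytes from mice on the high fat diet, 10 of 40 members tested were raised and 1 lowered, where 12.9% of all genes tested were raised and 11.1% lowered. The median log2 fold change was 0.41, against 0.01 over all genes. The raised members were Mcm2, Mcm3, Mcm4, Mcm5, Cdc6, Pola1, Rpa1, Rpa2, Rrm1 and Chaf1a. Mcm3, for example, went from 1.30 and 1.44 CPM to 4.76 and 3.48 CPM (1.59 ± 0.22 SE, edgeR adjusted p = 0.00911). The largest change in the licensing genes was that of Cdc6, from 2 and 3 reads to 14 and 19 (2.38 ± 0.56, adjusted p = 0.0327), a call that was lost without each of the 4 libraries in turn. Cdc6 was tested only because of its high fat diet reads, so its call adds no support. Mcm7, by contrast, was at 10.4 and 9.70 CPM on chow and at 10.9 and 9.20 CPM on the high fat diet.

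Rrm2 was the 1 member lowered, from 8.80 and 7.82 CPM to 4.05 and 4.68 CPM (-0.93 ± 0.15, adjusted p = 0.012), although Rrm1, the large subunit of the same enzyme, rose from 7.42 and 8.55 CPM to 11.7 and 11.2 CPM (0.52 ± 0.12, adjusted p = 0.034). Rrm2 and Rrm1 thus moved apart, each without overlap of its groups, but Rrm1 was not called without chow 1, HFD 1 or HFD 2, nor Rrm2 without HFD 1. Of the genes with the largest and smallest changes in their role, Gins3 (1.06), Gins4 (-0.10), Pole (0.69), Pola2 (0.21), Rfc3 (-0.20), Pcna (-0.08), Lig1 (0.48), Tyms (0.09), Uhrf1 (1.95) and Chaf1b (-0.11) were not called, Rpa2 rose by 0.65, and Rpa1 rose by 0.42. Orc1 was not tested, with at most 4 reads in a library.

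These calls rested on pairs of libraries. Without chow 1, chow 2, HFD 1 or HFD 2 the raised members numbered 5, 9, 2 and 4, and a fit of all 26 libraries left 1, Mcm3. Of the mitosis genes 6 of 22 tested were raised (27.3%, where 12.9% of all genes tested were), with a median of 1.30. Of the raised ones, Ccnb1, Cenpe and Prc1, at 0.0504, 0.0672 and 0.118 CPM on chow, were tested only because of their high fat diet libraries. Their calls add no support. Although the samples are labelled hepatocytes, markers of other liver cells were present and rose with the diet: 6 of 7 tested leukocyte markers (27.9 to 29.8 CPM summed on chow, 47.1 to 52.2 CPM on the high fat diet), 5 of 5 endothelial markers (34.6 to 36.7 and 85.3 to 87.7 CPM) and 4 of 5 stellate markers (8.60 to 14.5 and 33.2 CPM). Only 2 of 5 bile duct markers had enough reads to be tested and neither was called, and 2 of 7 hepatocyte markers were lowered. Reads aligned to more than 1 place made up 23.8 to 24.6% of all reads on chow and 19.01 to 19.3% on the high fat diet. The part of either in the rise of the members was not tested.

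Cholic acid raised 1 of 38 members tested, Mcm6 (2.63%), and lowered 1, Mcm10 (2.63%), where 2.27% of all genes tested were raised and 2.5% lowered, so the share of members called was near that of all genes. Mcm6 was at 3.12, 2.07 and 3.77 CPM on chow and 7.93, 7.02 and 11.6 CPM on cholic acid (log2 fold change 1.57 ± 0.31 SE, edgeR adjusted p = 0.0276). Its groups did not overlap, but the call was lost without any 1 library other than chow 3, with adjusted p from 0.0642 to 0.101. The median of the members was 0.18, against 0.01 over all genes. Of the cell type markers, 1 of 7 tested leukocyte (Csf1r, 1.36) and 1 of 5 stellate markers (Reln, 1.16) were raised, and 1 of 7 hepatocyte (Serpina1c, -1.10) and 1 of 4 tested erythroid markers (Alas2, -1.69) were lowered. The summed leukocyte markers were at 82.2 to 183.8 CPM on chow and 164 to 262 CPM on cholic acid, and reads aligned to more than 1 place made up 23.8 to 25.1% and 16.6 to 17.6% of all reads; their part in the result was not tested.

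Of the members not called, Dtl (2.18, adjusted p = 0.0526), Gins2 (1.71), Lig1 (1.11, adjusted p = 0.0534), Pole (1.08) and Rrm2 (0.96) had positive estimates. The smallest in their roles were Mcm4 (0.10), Cdc45 (0.17), Pold1 (0.09), Rfc5 (0.11), Rpa2 (0.19), Tyms (-0.12) and Slbp (-0.14); Rfc4 (-0.42) and Rpa3 (-0.34) were the largest in theirs. Orc1, Cdc6 and Gins3 were not tested. Chow 3 stood apart from the other chow libraries, with 6 reads of Cdc6 and 4 of Orc1 where chow 1 and 2 had none, and with Mcm7 at 7.82 CPM against 13.9 and 14.8 CPM. Without it 7 members were raised, Mcm6 with Mcm5, Cdt1, Gins2, Lig1, Uhrf1 and Dtl. Over all genes, calls in either direction went from 600 to 1345 in that fit. Chow 3 was singled out by reads of the members themselves, and no member was raised without any 1 of the other libraries. Of the mitosis genes 10 of 29 tested were raised in the fit of all 6 libraries, with a median of 2.41 and Ccnb1 at 3.75. Some of them, such as Espl1 (0.257 CPM on average on chow), were tested only because of their cholic acid libraries, so their calls add no support. Of 48 further replication genes tested 2 were raised, Dbf4 and Esco2 (4.17%, where 2.27% of all genes tested were). In each of PHx, knockout, high fat diet and cholic acid the median of the mitosis genes was above that of the members. Mitosis genes tested only because of their treated libraries are part of these medians, and the difference between the lists was not tested.

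**Figure D5:**
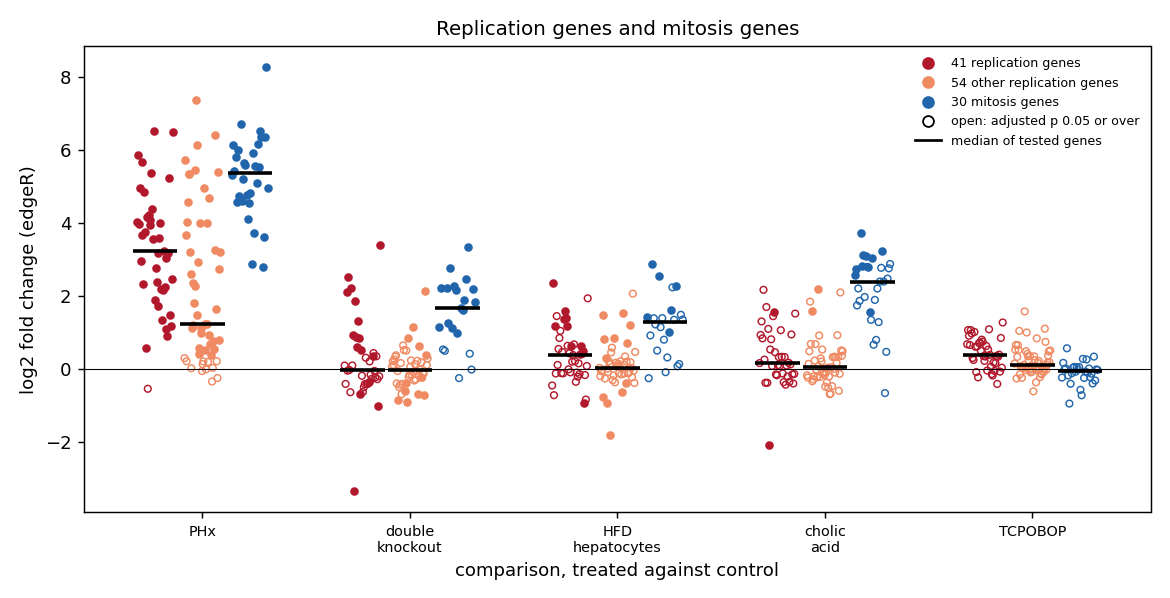
log2 fold change (y axis) of the 41 replication genes, 54 further replication genes and 30 mitosis genes in the 5 comparisons, with filled dots for adjusted p under 0.05, open dots for the rest and a bar at the median of tested genes. The median of the mitosis genes lies above that of the 41 genes in PHx, knockout, high fat diet and cholic acid, but not in TCPOBOP as fitted with the library labelled corn oil 1; without that library it is 3.11 against 1.29.

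After TCPOBOP none of 40 members tested was called, where 0.0% of all genes were raised and 0.0% lowered by edgeR; 751 genes had an unadjusted p under 0.05, and DESeq2 called 109 genes and none of the members. The library labelled corn oil 1 held the higher corn oil value of 39 of 41 members. Mcm6 was at 45.5 CPM there, at 3.72 CPM in corn oil 2 and at 34.2 and 49.2 CPM in TCPOBOP. Rrm2 was at 50.0 CPM there, at 4.52 CPM in corn oil 2 and at 38.7 and 33.6 CPM in TCPOBOP. For both, the corn oil libraries differed by more than the group means did. Tk1 was the 1 member with an unadjusted p under 0.05, at 26.3 and 19.8 CPM against 36.5 and 47.4 CPM (0.86 ± 0.21, edgeR adjusted p = 0.812). The largest and smallest estimates of the other roles were Cdc6 (1.08) and Orc6 (0.23), Gins2 (1.03) and Gins4 (-0.07), Pole (1.10) and Pola2 (-0.03), Pcna (0.35) and Rfc5 (-0.04), Rpa3 (-0.40) and Rpa1 (0.17), Lig1 (0.63), and Uhrf1 (1.29) and Slbp (-0.06), with Tyms at 0.05 the smallest beside Tk1. Orc1 was not tested.

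Without the library labelled corn oil 1, which leaves 1 control assumed to vary as the TCPOBOP libraries do, 26 of 40 members were raised and 1, Mcm10, was lowered, where 5.71% of all genes were raised and 3.64% lowered. The median was 1.29, against -0.01 over all genes. Of the licensing genes 8 of 9 were raised, with Mcm5 (3.84 ± 0.35, adjusted p = 0.000627) and Mcm6 (3.49 ± 0.28, adjusted p = 0.000358) among them, and Rrm2 rose by 3.00. Uhrf1 had 2 reads in corn oil 2 and 179 and 272 in TCPOBOP, a ratio of 120 with an exact interval of 32.9 to 991. Of the 5 clamp and loader genes only Pcna (1.06) was called, and Gins4 (-0.06) and Rpa3 (-0.15) were not. Of the mitosis genes 25 of 30 were raised in this fit, with a median of 3.11. Without corn oil 2 no member was called.

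Mcm10, which lies at chr2:4989714-5012791 on the minus strand (GRCm38) and shares no exon with another gene in GENCODE M21, ran apart from the other members. MCM10 binds MCM2-7 and helps to start unwinding. In sham liver Mcm10 was at 159, 136 and 156 CPM, which is 19.6 CPM per kb, where the 6 subunits of MCM2-7 were at 0.397 to 1.502 CPM per kb. Its level in sham liver was thus above that of each subunit of the helicase it assists. In PHx it was at 167, 99.0 and 46.7 CPM, overlapping sham (-0.53 ± 0.37 SE, edgeR adjusted p = 0.32), and without PHx 1 it was called lowered. In the Fxr-/- Shp-/- livers it fell from 44.1, 39.4 and 42.8 CPM to 3.48, 5.25 and 3.79 CPM, with no overlap (-3.33 ± 0.16, adjusted p = 1.88e-06). On cholic acid it fell from 102, 66.9 and 90.6 CPM to 19.2, 18.2 and 24.8 CPM, again with no overlap (-2.06 ± 0.21, adjusted p = 0.00297), and the call held without each library in turn. In hepatocytes it was at 73.3 and 78.3 CPM on chow and at 74.4 and 66.4 CPM on the high fat diet (-0.11, adjusted p = 0.424). In the TCPOBOP experiment corn oil 2 had 79.8 CPM of it, TCPOBOP 1 and 2 had 34.2 and 52.0 CPM, and the library labelled corn oil 1 had 20.4 CPM.

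Some members shared calls across experiments. Of 38 members tested in all 3, Mcm2, Mcm3, Mcm4, Mcm5, Rpa1 and Chaf1a were raised after PHx, in the knockout and on the high fat diet, as were 1.42% of all genes tested in these 3 experiments, and no member was lowered in both of the last 2. With all 26 libraries in 1 fit, 0 members were raised in all 3, and 98 of all genes were. The sizes differed widely, for Mcm2 4.22, 1.88 and 1.38 and for Chaf1a 4.98, 2.11 and 1.20 on the log2 scale. The experiments share no library, but they differ in tissue (hepatocytes for the high fat diet, whole liver otherwise), strain, age, feeding or floxed alleles. These cannot be told apart from the treatment when effects are set side by side. With that limit, the effects of whole-liver experiments with 3 libraries a group were tested against each other in 1 fit per pair. The effect of PHx was higher than that of cholic acid in 38 of 41 members, where 8.01% of all genes were higher and 5.01% lower, and than that of the knockout in 37 of 41, where 16.0% were higher and 15.4% lower. Pcna, for example, differed by 2.94 ± 0.25 (edgeR adjusted p = 6.69e-05) from its effect on cholic acid. Orc1 and Gins3 were counted as higher in both, although neither had enough reads to be tested in the knockout or cholic acid experiment alone. Orc1 passed the low-count filter of these fits by its PHx reads, so its calls add no support. Between knockout and cholic acid, no member of 39 tested had a higher effect and 3 had a lower effect in the knockout, where 7.18% of all genes were higher and 6.74% lower: Cdt1 (by -1.34 ± 0.29, adjusted p = 0.00873), Mcm10 (-1.27 ± 0.27, adjusted p = 0.0079) and Mcm7 (-1.13 ± 0.27, adjusted p = 0.0169). Cdt1 was at 4.35 ± 0.74 and 3.30 ± 0.20 CPM in wild type and knockout, and at 3.48 ± 0.69 and 6.70 ± 0.24 CPM on chow and cholic acid (SD, n = 3), with neither change called alone.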

How the data were processed

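The deposited table holds read counts per gene for 26 libraries, not normalized by the authors. Per the labels' protocols, RNA was taken with an RNeasy kit and libraries were made with a TruSeq stranded mRNA kit. The submitters' processing notes name bcl2fastq 2.17.1.14, Trimmomatic, STAR 2.4.2a, Picard 1.119 and HTSeq with GRCm38 (mm10); roles, annotation and strand setting are not given in the sources used here, and the labels name no sequencing batch. The 5 summary lines that name no gene were left out of library sizes and tests; reads in no feature came to 3.195 to 5.367% of each library's total. Of 47643 identifiers, 47224 matched a symbol.

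Each experiment was fitted alone with edgeR 4.0.16 in R 4.3.3: filterByExpr (minimum count 10, minimum total 15), TMM factors, glmQLFit, glmQLFTest and Benjamini-Hochberg adjustment over all genes tested. Differences between effects were contrasts in fits of 4 groups. SE was derived from each log2 fold change and its F statistic. The procedure was tested on simulated counts with known fold changes. Alternatives were DESeq2 size factors, the DESeq2 1.42.0 Wald test, no low-count filter, a minimum mean count of 10, a replicate block, all 26 libraries in 1 fit, and leaving out each library. The main fits had no replicate block, also for cholic acid. For cholic acid against chow, deviations of same-numbered libraries from their group means correlated at 0.133, 0.155 and 0.103. With the replicate block the same 2 members were called there. The like correlations were 0.104 for TCPOBOP and 0.094 for the high fat diet. Whether replicate numbers pair libraries was not settled in any experiment.

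The members and lists were chosen with earlier results of these data known, so no list has a test of its own. In each comparison the text names the members with the largest and smallest change of each role, those called against most members, and those not tested; further members were named after their values were seen. Promoters were taken at the first listed RefSeq start of each gene. Intervals cover counting error only.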

Additional observations from a re-analysis of the deposited data

Results flagged for a closer look

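Effects of the same kind of contrast differed between experiments by a test of the difference itself. The effect of PHx was higher than that of cholic acid in 38 of 41 members, where 8.01% of all genes were higher. The 3 not called were Mcm10, Cdc6 and Dtl, each with a positive estimate. The effect of PHx was higher than that of the knockout in 37 of 41 members, where 16.0% of all genes were higher. Gins4, Cdc6, Uhrf1 and Dtl were not called. The knockout had a lower effect than cholic acid in 3 members, Cdt1, Mcm10 and Mcm7. Over all genes 6.74% were lower, a share near that of the members. Orc1 and Gins3, counted as higher in both PHx comparisons, could not be tested in the knockout or cholic acid experiment alone. The experiments of each pair differ in strain, age, feeding or floxed alleles, which cannot be told apart from the treatments.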

How the results depend on the processing

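The count of 40 members raised after PHx was the same under all alternatives run, and with each library left out. With all 26 libraries in 1 fit, 3 members were raised in the knockout, 1 was raised and 0 lowered on the high fat diet, and 3 were raised on cholic acid. The DESeq2 Wald test gave 2 lowered on the high fat diet, 6 raised on cholic acid and 1 with a higher effect in the knockout than on cholic acid; without a filter on low counts 4 were raised on cholic acid. With each library left out in turn, members raised ranged from 0 to 26 (TCPOBOP, 26 without corn oil 1), 2 to 9 (high fat diet) and 0 to 7 (cholic acid, 7 without chow 3). Members lowered ranged from 0 to 1 (TCPOBOP), 0 to 1 (PHx, Mcm10 without PHx 1) and 0 to 2 (high fat diet). Their median log2 fold change ranged from -0.12 to 1.29 (TCPOBOP), -0.14 to 0.075 (knockout) and 0.30 to 0.40 (high fat diet), and the members with a higher effect in the knockout than on cholic acid from 0 to 1. The causes of these changes were not tested. Over all genes, calls moved from 0 to 109 (DESeq2 Wald test) and 9 (26 libraries) for TCPOBOP, from 3333 to 1735 (26 libraries) for the high fat diet, and from 600 to 1445 (DESeq2 Wald test), 955 (no filter) and 3132 (26 libraries) for cholic acid; with a library left out they went down to 2554 for PHx and 1141 for the high fat diet, ranged from 189 to 1345 for cholic acid and reached 1233 for TCPOBOP.

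With the replicate block, 12 members were raised and 3 lowered on the high fat diet, and 10 were raised and 3 lowered in the knockout. The block changed no member's call on cholic acid. In none of these experiments were the numbers shown to pair the libraries. Low counts limit Orc1, Cdc6, Gins3, Uhrf1 and Dtl outside the PHx libraries.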

Other observations

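Outside the 41 genes, the 54 further replication genes were called in both directions in the knockout and on the high fat diet. In the knockout 10.9% of those tested were raised and 15.2% lowered, below the 21.0% and 19.4% of all genes tested. On the high fat diet 14.9% were raised and 10.6% lowered, near the 12.9% and 11.1% of all genes. The genes named here are thus single values and no result about the list. In the Fxr-/- Shp-/- livers Top2a, the topoisomerase of dividing cells, rose by 2.15 and Pold4, the small subunit of polymerase delta, by 1.18 on the log2 scale. In the same livers the histone chaperone Nasp fell by 0.88, the nuclease Dna2 fell by 0.82 and topoisomerase Top1 fell by 0.69. Dna2 was lowered on the high fat diet as well (-0.91, edgeR adjusted p = 0.0107). Esco2, an acetyltransferase that locks cohesin onto replicated DNA, rose after PHx (7.37) and on cholic acid (2.19, adjusted p = 0.0112), but was lowered in hepatocytes on the high fat diet (-1.81, adjusted p = 0.0167). Dbf4, the activating subunit of the kinase that starts origins, rose on cholic acid (1.61) and was lowered on the high fat diet (-0.77). Whether these effects differ between the experiments was not tested.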
